A study of Homo sapiens with 2 samples.

Results

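The genes described here are 10 members of the feedback system that restrains signalling by STAT transcription factors, together with kinases that STAT factors switch on: SOCS1, SOCS2, SOCS3, SOCS5, SOCS6, CISH, PIM1, PIM2, PIAS1 and PIAS3. They were chosen by name, with earlier results of these data known. All probe sets that the array platform's annotation gives to these symbols were used. This gave 21 probe sets for the 10 genes, of 22283 probe sets on the array and 11963 genes with a probe set of 1 symbol. The data came from L-540, an established Hodgkin lymphoma cell line that is usually assigned to the T-cell lineage. Untreated L-540 cells were hybridised to 1 Affymetrix HG_U133A array and L-540 cells treated with vorinostat, a hydroxamate inhibitor of histone deacetylases, to another. The labels used here gave no dose, no treatment time and no vehicle for the untreated cells, and 1 cell line stands for the disease. The comparison addressed how vorinostat alters gene expression in these cells. With 1 array per group there was no replicate check, no test was run, and every difference below describes this pair of arrays.

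Cytokine receptors act through JAK kinases, which phosphorylate STAT factors, and STAT factors then enter the nucleus and activate genes. Among those genes are the brakes on the same pathway: SOCS proteins and CISH bind phosphorylated receptors or JAKs through an SH2 domain and recruit a ubiquitin ligase through their SOCS box. PIAS proteins are ligases for the small modifier SUMO that can hold back STAT factors in the nucleus. PIM kinases are serine/threonine kinases that are active as soon as they are made, so their output follows their expression, and they promote survival and growth. JAK-STAT signalling is often constitutively active in Hodgkin lymphoma, where SOCS1 is a recurrent target of mutation.

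Promoter sequence from RefSeq (GRCh38.p14) was available for 8 of the 10 genes, in 10 windows of 300 bases that ran from 250 bases before to 50 after an annotated start. The STAT-type palindrome TTCNNNGAA, which reads the same on both strands, was found in 1 of these 10 windows, that of CISH, which held 4 matches. Of 35116 RefSeq promoter windows of this length, 7.66% held at least 1 match and 7 windows (0.0199%) held at least 4. The CISH matches began 241, 230, 129 and 112 bases before the start, in 2 closely spaced couples. The variant of the palindrome with 4 bases between its arms was in 0 of the 10 windows and in 6.44% of all windows. The GC box GGGCGG, searched on both strands, was in 7 of the 10 windows, all but both SOCS3 windows and the second of PIAS1, and in 45.0% of all windows, and the GC content of the 10 windows ran from 62.3% to 81.3%. A match is a string of letters and not evidence that a factor binds there.

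The 3 promoters below show the CISH matches and the promoters of PIM1 and PIM2, the members with the lowest ratios. Each is given 5′ to 3′ on the gene's strand as the 250 bases before the start. CISH lies at chr3:50611775-50612024 on the minus strand, and its capitals mark TTCNNNGAA. PIM1 lies at chr6:37169902-37170151 on the plus strand, and its capitals mark the GC box on either strand. PIM2 lies at chrX:48919025-48919274 on the minus strand, and its capitals mark the octamer ATGCAAAT on either strand, a motif added after the windows were read.
CISH: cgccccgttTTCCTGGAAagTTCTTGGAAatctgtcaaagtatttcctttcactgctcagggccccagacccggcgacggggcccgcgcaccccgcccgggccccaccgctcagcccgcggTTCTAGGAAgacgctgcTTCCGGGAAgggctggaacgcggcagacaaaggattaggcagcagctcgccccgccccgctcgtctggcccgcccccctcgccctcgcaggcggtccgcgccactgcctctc
PIM1: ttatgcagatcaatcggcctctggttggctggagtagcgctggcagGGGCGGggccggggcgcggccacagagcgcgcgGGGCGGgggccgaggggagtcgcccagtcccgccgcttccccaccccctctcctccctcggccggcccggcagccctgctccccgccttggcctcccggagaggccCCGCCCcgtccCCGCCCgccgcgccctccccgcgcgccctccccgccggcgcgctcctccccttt
PIM2: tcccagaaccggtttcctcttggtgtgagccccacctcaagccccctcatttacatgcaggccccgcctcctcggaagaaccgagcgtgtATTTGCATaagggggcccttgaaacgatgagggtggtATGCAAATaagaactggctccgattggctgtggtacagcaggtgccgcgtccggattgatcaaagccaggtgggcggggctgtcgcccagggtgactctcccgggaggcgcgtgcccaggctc

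**Figure D1:**
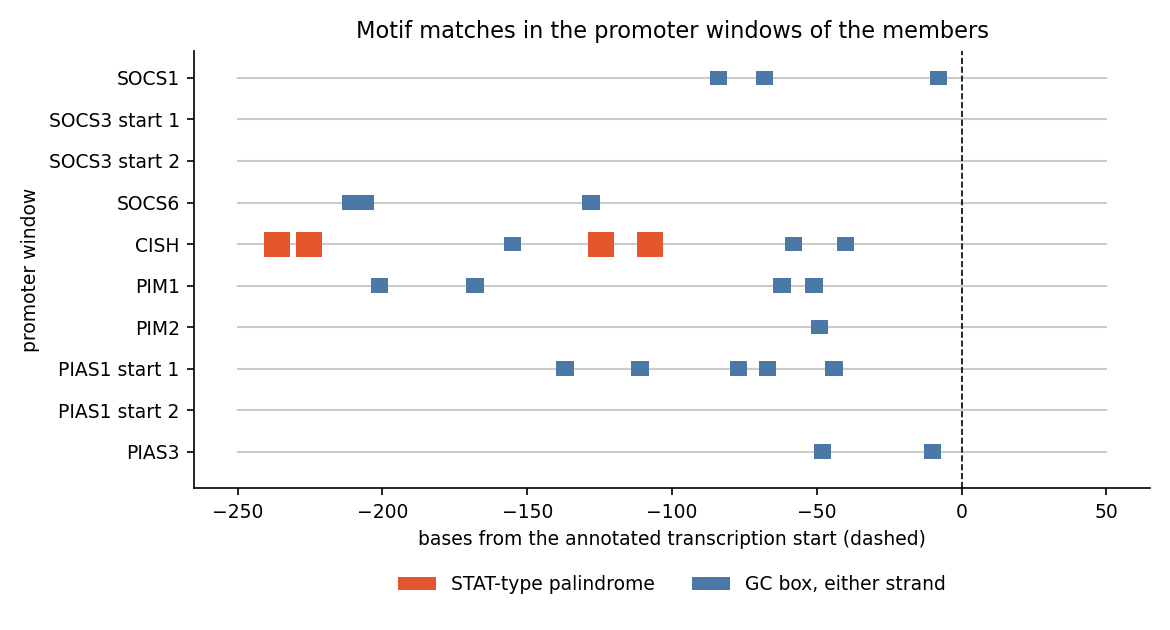
Positions of motif matches in the 10 promoter windows of 8 members, in bases from the annotated start (dashed line); tall bars are STAT-type palindromes and short bars are GC boxes. CISH alone of these windows carries the palindrome, with 4 matches, whereas 7 of the 10 windows carry a GC box.

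The values are MAS5 signals, linear intensities in arbitrary units. Signals under a floor of 68.9 units, the 40th percentile over the non-control probe sets of both arrays, were set to the floor before log2 was taken, and one with both signals under the floor counts as not measured. Of 22215 non-control probe sets, 61.2% were above the floor on the untreated and 58.8% on the treated array, and the trimmed mean signal was 500.2 on both. The log2 ratios of 18 hybridisation controls averaged 0.06 (SD 0.17 over these controls). Of 12 genes fixed as markers of Hodgkin and Reed-Sternberg cells, 10 were above the floor on both arrays, IRF4 (12032 and 14699, untreated and treated), TNFRSF8 (10777 and 3228) and BATF3 (6200 and 1825) being the brightest, while the chemokine genes CCL17 and CCL22 were under it. Of 12 markers of T and natural killer cells 4 were above the floor on both arrays and 6 under it on both. Those under it were CD3D, CD3G, LCK, CD7, CD8A and CD28. CD3E (139 and 47.4) and CD5 (120 and 35.5) were above it on the untreated array only. Above the floor on both arrays were 3 of 8 B-cell, 3 of 9 myeloid, 2 of 8 fibroblast and endothelial and 1 of 5 epithelial markers. The summed marker signal was 33973 and 24002 for Hodgkin and Reed-Sternberg cells, 12885 and 5062 for T and natural killer cells, 1312 and 595 for B cells, 604 and 457 for myeloid cells, 612 and 559 for fibroblasts and endothelium, and 166 and 223 for epithelium. Most of the lower T and natural killer sum came from PRF1 (6777 and 2819) and CD247 (4463 and 942), beside 926 and 812 for CD4. In such bulk RNA fewer cells with a transcript and less of it per cell cannot be told apart, and the part of the marker differences in the results below was not tested.

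Of the 10 genes, 9 were measured, each with both signals above the floor, as were 17 of the 21 probe sets. On its brightest probe set, each gene's measure, 1 of the 9 genes was lower by 2-fold or more after vorinostat, 0 were higher by that much and 8 differed by less. Among all 8277 measured genes 5.12% were at least 2-fold lower and 3.77% at least 2-fold higher, so the share of members past 2-fold, 1 gene, gives no result about the set. Most of the members leaned the same way by less: 7 of the 9 had a lower signal after vorinostat, against 53.0% of all measured genes. Their median log2 ratio was -0.36, against -0.04 over all measured genes. Because the members were chosen with earlier results of these data known, this lean is a description only. Counted by probe set, 14 of 17 had a lower and 3 a higher signal, with 1 at least 2-fold lower and 0 at least 2-fold higher, where 5.47% and 3.65% of 14194 measured probe sets passed.

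**Figure D2:**
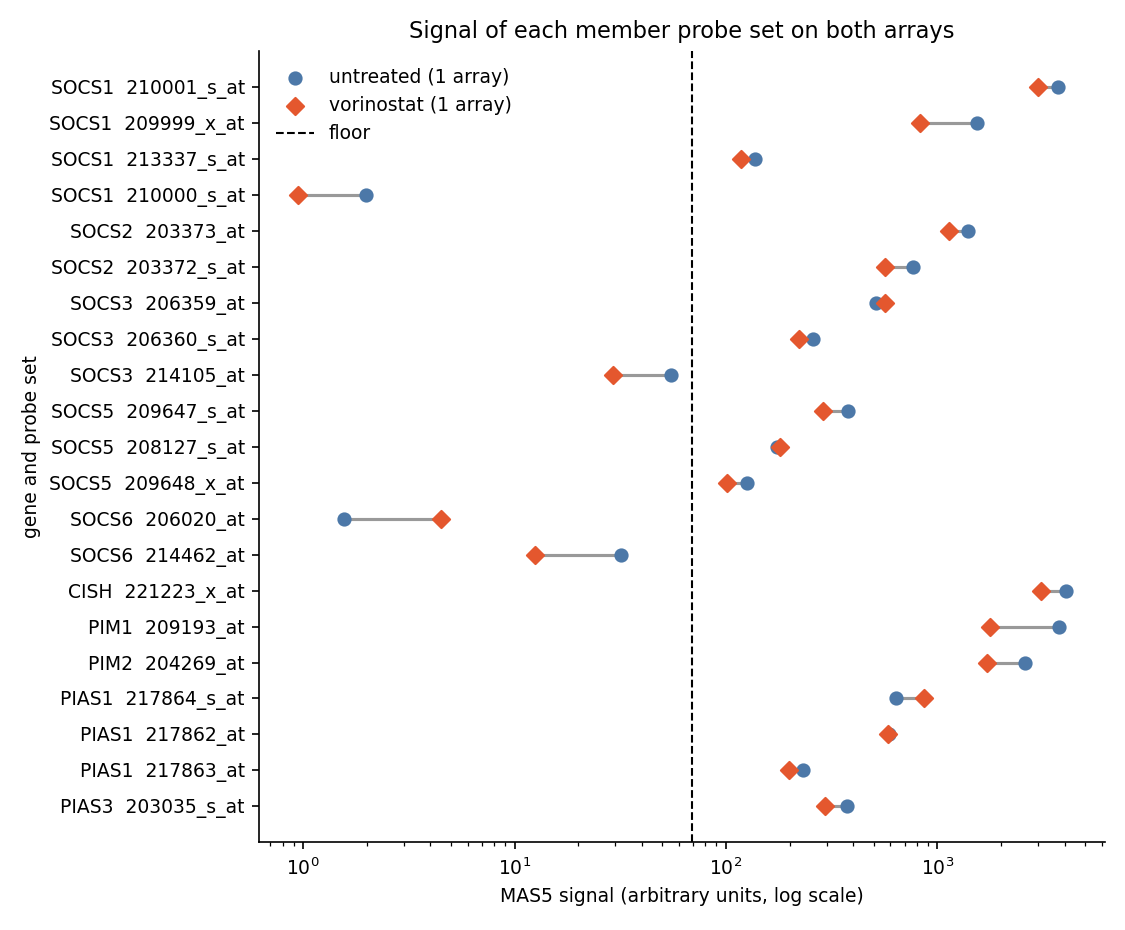
MAS5 signal (log scale) of each of the 21 member probe sets on the untreated array (circles) and the vorinostat array (diamonds), joined by a line; the dashed line is the floor of 68.9 units. The widest gap among the probe sets above the floor belongs to PIM1, from 3762 to 1782, and the 4 probe sets of SOCS6, SOCS1 and SOCS3 left of the line are not measured.

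The PIM kinase genes had the lowest ratios of the members. PIM1, a STAT-induced kinase first found as a site of retroviral insertion in mouse lymphomas, had a signal of 3762 without and 1782 with vorinostat on probe set 209193_at. It was therefore 2.11-fold lower (log2 ratio -1.08), and 4.33% of measured genes had a lower ratio. PIM2, its close relative with a role in the survival of lymphoid cells, had signals of 2601 and 1725 on probe set 204269_at. It was 1.51-fold lower (log2 ratio -0.59), and 15.2% of measured genes had a lower ratio. Both were lower in the treated array, PIM1 by 0.49 log2 units more than PIM2. Each rests on 1 probe set without a suffix that marks shared sequence, so neither has a second probe set to check it.

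PIM1 stands close to the 2-fold line. It was 1.04 log2 units below the median of all genes, and 1.03 below it when the arrays were scaled to equal medians. This distance could hardly change, because such scaling shifts the ratios above the floor by the same amount. That scaling moved the median of all genes by 0.12 log2 units and the log2 ratio of PIM1 to -0.95, short of 2-fold. It also moved the share of higher genes among all those past 2-fold from 42.4% to 58.8%. At 1.5-fold both PIM genes passed, which made 2 of 9 members lower and 0 higher, where 15.5% and 12.7% of all measured genes passed.

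SOCS1 and SOCS3, the members of the SOCS family that can block JAK kinase activity directly, differed in direction on their brightest probe sets. SOCS1 had signals of 3734 and 2991 on probe set 210001_s_at, which is 1.25-fold lower (log2 ratio -0.32). Its probe set 209999_x_at went from 1542 to 827, 1.86-fold lower, and 213337_s_at from 137 to 118, 1.16-fold lower. All 3 measured SOCS1 probe sets were thus lower in the treated array, over a range of 0.68 log2 units, and the fourth, 210000_s_at, was under the floor at 1.99 and 0.943. All of them carry a suffix (s or x) for probes that can match other transcripts.

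SOCS3 had signals of 513 and 563 on probe set 206359_at, 1.10-fold higher (log2 ratio 0.13). Its other measured probe set, 206360_s_at, had 258 and 221, 1.17-fold lower, and 214105_at was under the floor at 55.2 and 29.2. SOCS3 therefore had no settled direction on these arrays, and the median of its 2 measured probe sets was a log2 ratio of -0.04.

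CISH and SOCS2, whose transcription is typically driven by STAT5, were lower on each of their measured probe sets. CISH, which competes for STAT5 docking sites on receptors and whose promoter holds the 4 palindromes printed above, had signals of 4077 and 3111 on its 1 probe set, 221223_x_at. That is 1.31-fold lower (log2 ratio -0.39), and the x in the probe set's name warns that its probes may match other transcripts. SOCS2, a regulator of growth hormone signalling, had signals of 1401 and 1133 on 203373_at, 1.24-fold lower (log2 ratio -0.31). Its second probe set, 203372_s_at, had 764 and 566, 1.35-fold lower. The SOCS2 probe sets lay 0.13 log2 units apart.

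SOCS5, a family member linked to signalling through the interleukin-4 and EGF receptors, had signals of 379 and 287 on probe set 209647_s_at, 1.32-fold lower (log2 ratio -0.40). Probe set 209648_x_at, with 125 and 101, was 1.24-fold lower, while 208127_s_at, with 175 and 180, was 1.03-fold higher. Thus 2 of its 3 probe sets were lower. SOCS6, which acts on receptor tyrosine kinases, was under the floor on both of its probe sets and both arrays. Its signals were 31.8 and 12.4 on 214462_at and 1.55 and 4.48 on 206020_at, so no direction or fold is given for it.

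The PIAS genes differed in direction on their brightest probe sets. PIAS1, a SUMO ligase, had signals of 638 and 868 on probe set 217864_s_at, 1.36-fold higher (log2 ratio 0.44). Its 2 probe sets without a shared-sequence suffix did not share that direction. Probe set 217862_at had 591 and 586 (log2 ratio -0.01) and 217863_at had 233 and 199 (log2 ratio -0.23). PIAS3, which binds STAT3, had signals of 375 and 293 on its 1 probe set, 203035_s_at, 1.28-fold lower (log2 ratio -0.36).

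**Figure D3:**
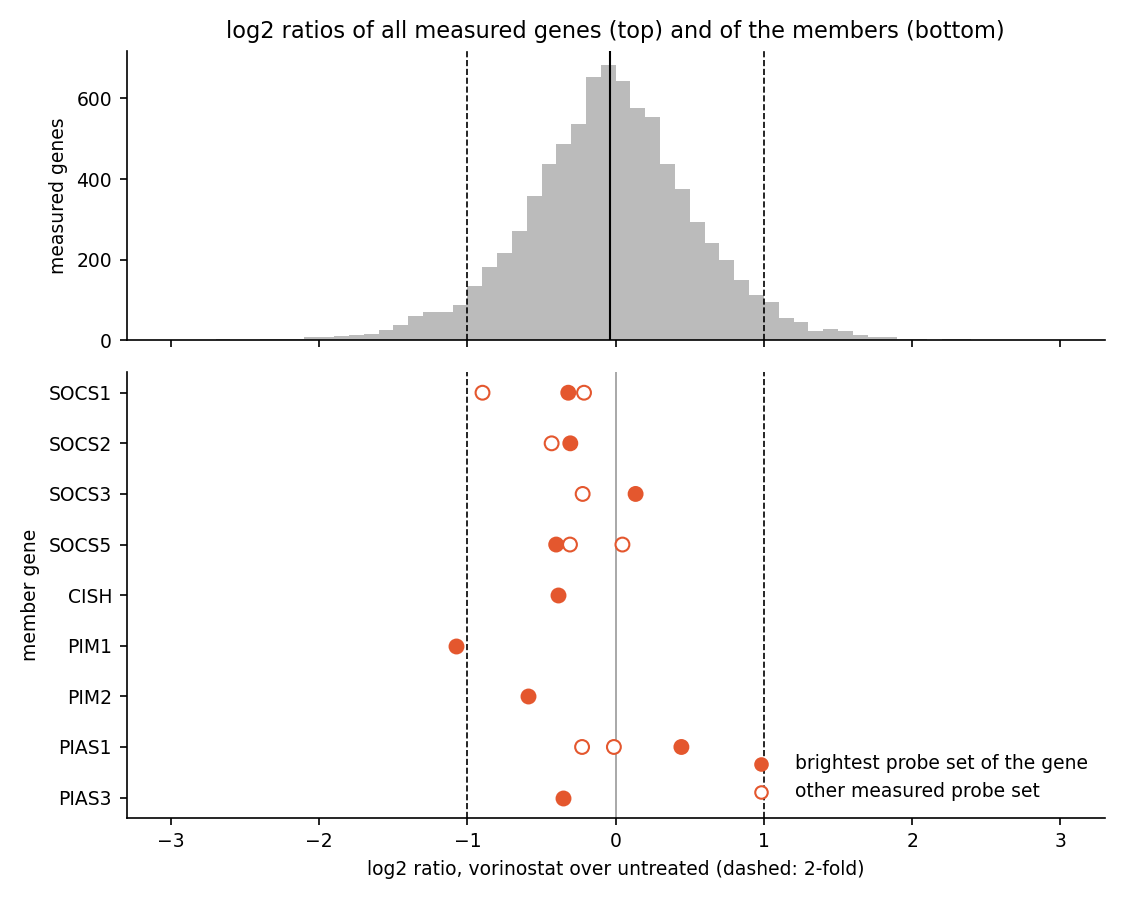
Histogram of the log2 ratios (vorinostat over untreated) of 8277 measured genes, with their median as a solid line, above the ratios of the 17 measured member probe sets; filled points are the brightest probe set of each gene and dashed lines mark 2-fold. PIM1 alone lies past a dashed line, at -1.08, and the open and filled points of PIAS1, SOCS3 and SOCS5 lie on both sides of 0.

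The disagreement between probe sets of the same gene gives a measure of error within these arrays, which covers the probes but not the cultures. Over 2428 genes with more than 1 probe set above the floor on both arrays, the pooled SD of the log2 ratio between probe sets of a gene was 0.30. The median range within a gene was 0.34 and its 90th percentile 0.81, and in 27.6% of these genes the probe sets went both ways. Of the 5 members with several measured probe sets, 2 (SOCS1 and SOCS2) were lower on all of them and 3 (SOCS3, SOCS5 and PIAS1) went both ways. The log2 ratios of SOCS1, SOCS2, SOCS5, CISH and PIAS3, from -0.31 to -0.40, were close to this SD. Their order among themselves cannot be read. PIM2 and PIM1 lay further from 0, at -0.59 and -1.08, but each rests on 1 probe set. The probe sets of SOCS1 alone spanned 0.68 log2 units, more than the distance of PIM2 from 0.

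The other genes of the pathway were taken from 8 lists of 151 genes, of which 98 were measured. Of the JAK and STAT genes 9 of 11 were measured, with 2 at least 2-fold lower, 1 higher and a median log2 ratio of -0.0030. STAT5A, an activator of CISH, SOCS2 and the PIM genes, had signals of 1528 and 587, 2.61-fold lower, and its partner STAT5B had 2070 and 1413, 1.46-fold lower. STAT6 was 2.66-fold lower, STAT4 was 4.93-fold higher and JAK1, with 3853 and 5700, was 1.48-fold higher. STAT3, an inducer of SOCS3, had 6875 and 9025, 1.31-fold higher. Of the 9 genes 4 had a higher and 5 a lower signal in the treated array. Whether the values of these genes and of the members are linked was not tested.

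Of 31 cytokine receptor genes 23 were measured, with 4 at least 2-fold lower, 0 higher and a median of -0.16. CSF2RB, the shared beta chain for interleukin-3, interleukin-5 and GM-CSF and a receptor that signals through STAT5, had signals of 444 and 108 and was 4.10-fold lower. The interleukin-15 receptor gene IL15RA was 2.24-fold lower (628 and 280), and IL6R and IL4R were lower too (2.99-fold and 2.63-fold). In all 15 of the 23 had a lower and 8 a higher signal, the highest ratios being those of IL6ST, the shared signalling chain of the interleukin-6 family (596 and 914, 1.53-fold higher), and LIFR (131 and 194, 1.48-fold higher). Of 23 cytokine genes 6 were measured and 0 passed 2-fold in either direction (median -0.14). This count depends on how dim signals are treated. With an offset of 16 units in place of the floor 3 cytokine genes were lower, and 1 when the floor was the 25th percentile. The offset keeps every cytokine gene with a probe set, however dim, so its count is not out of the 6 measured here. The median ran down to -0.51 without shared-sequence probe sets. IFNG had signals of 281 and 145 (1.94-fold lower) and IL13 had 153 and 86.7 (1.76-fold lower). IL7 had 82.0 and 70.9, and IL12A was under the floor in the untreated array and at least 1.21-fold higher in the treated one.

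Of 17 further brakes on JAK-STAT signalling 12 were measured, with 2 lower, 1 higher and a median of -0.13. The phosphatase gene PTPN1, which dephosphorylates JAK2 and TYK2, had signals of 855 and 2451 on its brightest probe set, 2.87-fold higher, and the other measured one gave a log2 ratio of 0.54. The adaptor gene SLA was 2.56-fold lower (390 and 153), and USP18, a brake on the type I interferon receptor, was 2.03-fold lower (290 and 143). PTPN2, a phosphatase for JAK1 and JAK3, had signals of 1224 and 647, 1.89-fold lower. Of the close relatives of the members in this list, PIAS2 had a log2 ratio of -0.03, and PIAS4 had -0.24 on its brightest and -1.15 on its other probe set.

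The partners of the SOCS box and of the PIAS ligases were mostly within 2-fold. Of 11 genes of the SOCS box ubiquitin ligase 7 were measured and 0 passed 2-fold (median -0.08). RNF7, the RING protein that pairs with cullin-5, had signals of 1097 and 549 and was 1.996-fold lower, just short of the line. The RING gene RBX1 was 1.51-fold lower, the cullin gene CUL5 1.24-fold lower, and NEDD8, the modifier that activates cullins, 1.62-fold higher. The probe sets of the adaptor genes went both ways, with log2 ratios of 0.23 on the brightest and -0.41 on the other for ELOB, and of -0.08 and 0.25 for ELOC. Of 16 SUMO pathway genes 7 were measured, with 1 lower, 0 higher and a median of -0.19. SUMO3 had 3991 and 1864, 2.14-fold lower, with a log2 ratio of -1.10 on both of its probe sets. SENP5, a SUMO protease gene, was 1.64-fold higher, SENP6 was 1.57-fold lower and the SUMO ligase gene TOPORS was 1.42-fold higher.

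Of 21 genes for partners and substrates of PIM kinases 19 were measured, with 1 lower, 0 higher and a median of -0.21. CDC25A, a cell cycle phosphatase that PIM1 activates, had signals of 374 and 181, 2.07-fold lower, and a log2 ratio of -0.47 on its other probe set. CDKN1B, the cell cycle inhibitor p27 that PIM kinases restrain, had 1776 and 938, 1.89-fold lower. EIF4EBP1, a translation repressor, was 1.80-fold higher (260 and 469), and MYB was 1.76-fold lower (1650 and 938). MYC, with which PIM kinases cooperate in lymphoma, had a log2 ratio of -0.09.

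Among 26 other genes known as STAT targets 18 were measured, with 4 lower, 2 higher and a median of -0.24. The lower ones were IL4R, which is also in the receptor list, the survival gene BCL2L1 (2.47-fold, each of its 3 probe sets lower), the perforin gene PRF1 (2.40-fold) and the AP-1 gene JUNB (6463 and 3181, 2.03-fold). The higher ones were the cyclin gene CCND3 (2.90-fold) and the phosphatase gene DUSP6 (104 and 238, 2.29-fold, with a log2 ratio of 0.44 on another probe set). With arrays scaled to equal medians, SUMO3, CDC25A, USP18 and JUNB, like PIM1, were short of 2-fold. CDC25A and USP18 were so after quantile and loess normalization too, DUSP6 after quantile normalization (log2 ratio 0.56), and RNF7 passed 2-fold after loess (log2 ratio -1.01). Equal-median scaling raised the medians of all 8 lists, that of the JAK and STAT list to 0.13 and that of the SOCS box list to 0.05, with the median of all genes at 0.08. After quantile normalization these list medians were lower than as deposited, at -0.07 and -0.13, and after loess at -0.06 and -0.12. Beside 5.12% lower and 3.77% higher among all genes, each of these lists is short and no list was tested. The members' median was lower than that of every list as deposited, but not in every setting. Without shared-sequence probe sets the members' median was -0.31, against -0.50 for STAT targets and -0.51 for cytokines. That setting left only 5 members measured, and fewer genes in both of these lists. By the median over probe sets the members' median was -0.36 against -0.37 for STAT targets.

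**Figure D4:**
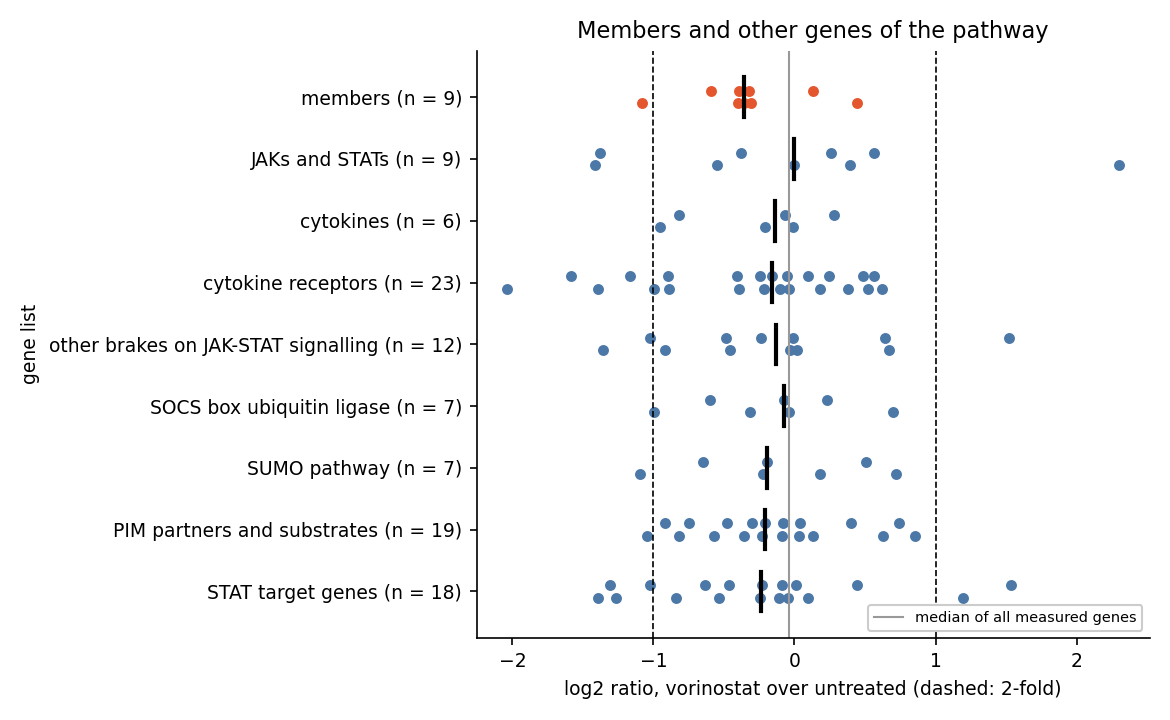
Log2 ratios (vorinostat over untreated) of the measured members (top row) and of 8 lists of other pathway genes, 1 point per gene, with the median of each list as a black bar, the median of all measured genes as a grey line and 2-fold as dashed lines. The members' median, -0.36, is left of the medians of all 8 lists as deposited, and the widest spread belongs to the JAK and STAT list, from STAT6 at -1.41 to STAT4 at 2.30.

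**Figure D5:**
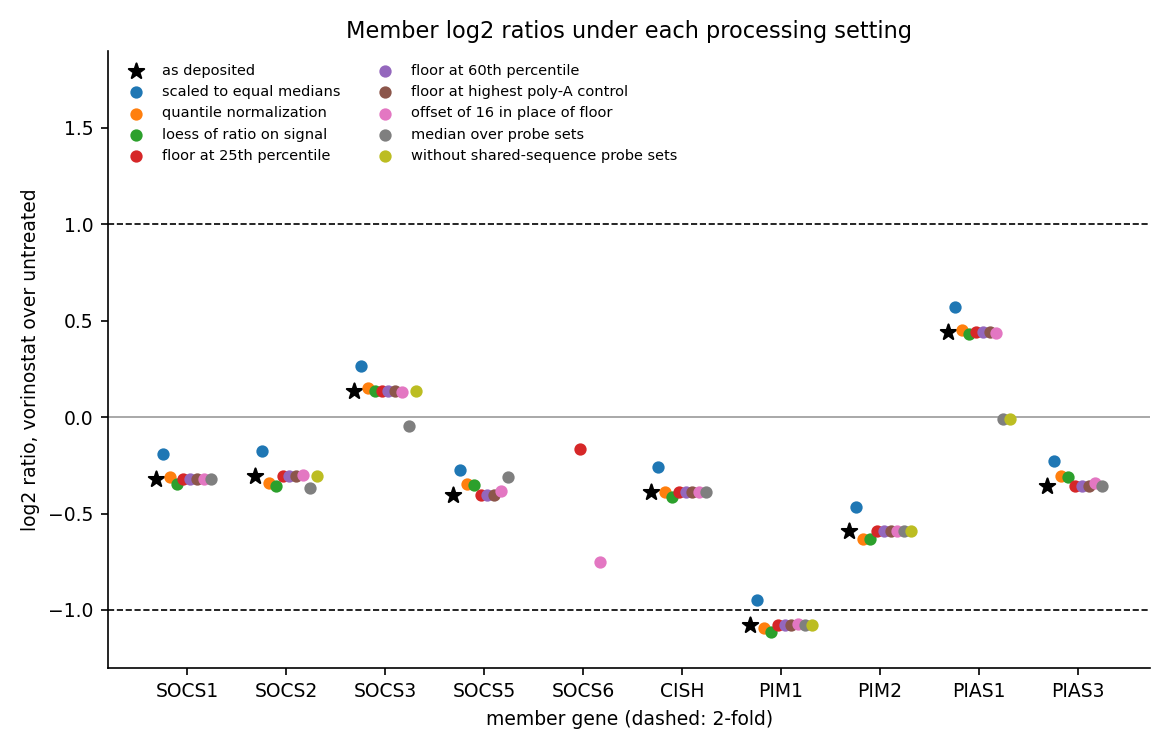
Log2 ratio of each member gene under the deposited values (stars) and 9 other ways of scaling, flooring or choosing probe sets (points); dashed lines mark 2-fold. PIM1 runs from -1.11 to -0.95, SOCS1, SOCS2, SOCS5, CISH, PIM2 and PIAS3 stay below 0 at each point shown, and SOCS3 and PIAS1 have points on both sides of 0.

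The settings do not bear equally on each member. PIM1 and PIM2 each rest on 1 bright probe set without a suffix, so a change of floor or of the choice of probe sets cannot move their values, and only the scalings and the offset could. For PIM1 these gave -0.95 with equal medians, -1.07 with the offset, -1.09 after quantile normalization and -1.11 after loess. PIM2 ran from -0.63 to -0.46 and CISH from -0.41 to -0.26. SOCS3 ran from -0.04 to 0.26, below 0 in 1 of 10 settings, and PIAS1 from -0.01 to 0.57, below 0 in 2 of 10. SOCS6 had a value in 2 settings that admit dimmer probe sets, -0.75 with an offset of 16 units and -0.17 with a floor at the 25th percentile.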

How the data were processed

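The authors deposited 1 intensity value per probe set and array. Per the submitters' processing notes the tool was MAS5, a summary of each probe set on a linear scale. Its version, scaling target and detection calls are not given in the sources used here. The deposited scale was kept. Symbols came from the platform's annotation, and members' probe sets with several symbols numbered 0. Signals were floored at 68.9, the 40th percentile of non-control signals, and each gene was read from its brightest probe set by mean log2 signal over both arrays. Ratios are vorinostat over untreated. Depth does not apply to arrays, and their number, 1 per group, limits the precision. No test was run, and 2-fold is a rule of size. Named list genes are those past 2-fold, or the 4 largest log2 ratios of a list, and STAT5B, STAT3, IL6ST, LIFR, PIAS2, PIAS4, ELOB, ELOC and MYC were named after their values were seen. Markers other than the brightest of their list were also named after their values were seen. The members, lists and rules were chosen with earlier results of these data known. A suffix of s, x or a in a probe set's name marks shared sequence. Alternatives were 3 scalings, 4 floors, 2 choices of probe set and thresholds of 1.5-fold and 3-fold. The steps recovered planted changes of 3-fold or more in simulated data. The planted genes were well above the floor, so calls near 2-fold and dim probe sets were not checked this way. The simulated noise in the log2 ratios was smaller than the SD of 0.30 between probe sets of a gene in these data. Recovery under such noise was not checked either. Python 3.11.15, pandas 2.3.3 and statsmodels 0.14.6 were used. Promoters came from RefSeq (GRCh38.p14). A planned comparison of protein sequences was not made.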

Additional observations from a re-analysis of the deposited data

How the results depend on the processing

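Of 11 alternatives, scaling to equal medians left 0 members at least 2-fold lower, in place of 1, and moved the members' median log2 ratio from -0.36 to -0.23. The same scaling moved the median of all measured genes from -0.04 to 0.08 and their lower share from 5.12% to 3.89%. With and without it, 7 of 9 members were below the median of all genes. That count could hardly change, because this scaling shifts the ratios above the floor by the same amount. By the median over probe sets 8 of 9 members were below the median of all genes, and without shared-sequence probe sets 3 of 5. A threshold of 1.5-fold gave 2 lower members and one of 3-fold gave 0, where 15.5% and 0.93% of all measured genes were lower. The count of higher members was 0 throughout these alternatives. By gene, PIM1 had a log2 ratio of -0.95 with equal medians, and PIAS1 (-0.01, by the median over probe sets or without shared-sequence probe sets) and SOCS3 (-0.04, by the median over probe sets) changed sign within 2-fold. Without shared-sequence probe sets only 5 of the members were measured. No paired analysis was possible because each group holds 1 array. No array could be left out for the same reason. Dim probe sets limit what can be said of SOCS6, and single probe sets what can be said of PIM1, PIM2, CISH and PIAS3.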

Other observations

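The PIM2 promoter window held 2 matches to the octamer ATGCAAAT, the motif of the factors OCT1 and OCT2. The matches were in opposite orientations and began 160 and 123 bases before the start. Of 35116 RefSeq windows, 1.77% held at least 1 match and 14 (0.0399%) held at least 2. The motif was searched after the window had been read, so these shares describe the window and are not a test, and the other 7 genes with a promoter window held 0 matches.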
